A study of Mus musculus with 6 samples.

Results

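Itpr1, Itpr2 and Itpr3 (IP3 receptors), Atp2a2 and Atp2a3 (calcium pumps), Stim1 and Stim2 (calcium sensors) and Orai1 (an entry channel) are 8 genes that release, refill and sense the calcium store of the endoplasmic reticulum. They were taken by gene symbol from a table of 27179 genes, and all 8 were among the 12345 genes with enough counts to be tested. The members were chosen with their values in this comparison known, so their levels and fold changes are given as a description, without p-values. RNA was measured by sequencing in mouse embryonic stem cells that express Tfe3-ERT2, a fusion of the murine transcription factor Tfe3 with a tamoxifen-responsive domain, which enters the nucleus when 4-hydroxytamoxifen (4OHT) is given. All cells grew on gelatin in medium with 10% fetal bovine serum and 1000 U/mL of the cytokine LIF. Cells of 3 libraries received 4OHT at 1 µg/mL for 48 h, and cells of 3 libraries received its vehicle ethanol (EtOH). All 6 libraries carry the fusion, so an action of 4OHT itself and nuclear entry of Tfe3-ERT2 cannot be told apart. What drives the fusion, and whether the line is 1 clone, were not given in the sources used here. No label says that the libraries of 1 group were separate cultures, so p-values reflect the spread between libraries alone, which may be technical.

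Phospholipase C at the plasma membrane makes inositol trisphosphate (IP3), which opens IP3 receptors and lets calcium out of the endoplasmic reticulum. SERCA pumps, encoded by the Atp2a genes, return calcium to the store, and STIM proteins sense when the store is empty and open ORAI channels at the plasma membrane, a route called store-operated entry. Release through IP3 receptors is known to produce calcium oscillations in mouse embryonic stem cells.

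The windows before 1 annotated start each of Itpr2 and Itpr3 are shown because these members had the 2 largest fold changes. The windows were also picked for their difference in CACGTG, a form of the E-box core sequence, which MiT/TFE factors such as Tfe3 can bind. Nothing is read from that difference, since the 2 windows were picked on it. Both are RefSeq sequences of GRCm38.p6, the 250 bases before a start site, printed 5′ to 3′ on the strand of the gene (Itpr2 chr6:146502224-146502473, minus strand; Itpr3 chr17:27057054-27057303, plus strand). These start sites are not the outermost ends of the gene spans given with each gene. The start site lies 302 bases inside the span of Itpr3, whose printed window is wholly within the span, and 35 bases inside that of Itpr2. Capitals mark CACGTG and CATGTG, 2 forms of the E-box. CATGTG was not among the motifs planned for the search, whereas its longer form TCATGTG was.
Itpr2: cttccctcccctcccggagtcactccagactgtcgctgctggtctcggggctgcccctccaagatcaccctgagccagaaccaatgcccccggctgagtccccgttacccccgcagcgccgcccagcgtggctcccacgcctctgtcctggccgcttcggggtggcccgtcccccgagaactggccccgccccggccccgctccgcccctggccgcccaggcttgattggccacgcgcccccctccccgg
Itpr3: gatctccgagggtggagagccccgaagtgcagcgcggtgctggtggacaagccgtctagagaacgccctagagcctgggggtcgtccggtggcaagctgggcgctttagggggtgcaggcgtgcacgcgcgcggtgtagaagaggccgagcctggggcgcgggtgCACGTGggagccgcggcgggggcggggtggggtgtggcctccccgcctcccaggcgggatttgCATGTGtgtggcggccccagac
Windows of 300 bases, reaching 50 bases past the start, were matched for 6 members (Itpr2, Itpr3, Atp2a3, Stim1, Stim2 and Orai1), 1 window each. Itpr1 and Atp2a2 had no entry. Both strands were searched. CACGTG occurred in 1 of the 6, that of Itpr3, with its first base 85 bases before the start site of the window, and CATGTG occurred in that window too, 22 bases before it. Counted from the outer end of the Itpr3 span, the same motifs begin 217 and 280 bases downstream, inside the gene. Of the other windows, that of Stim1 has its start site 6305 bases inside the gene span. In those of Atp2a3, Stim2 and Orai1 the start site is the upstream end of the span. Of the windows of tested genes 10.2% hold CACGTG and 8.04% hold CATGTG, and over all 32851 windows the shares are 7.15% and 14.2%. None of the 6 held the longer forms TCACGTG (6.08% of windows of tested genes), TCATGTG (1.95%) or the longer CLEAR palindrome (0.704%), the first and last of which contain CACGTG. The windows of the 6 members were rich in G and C, from 68.3% in Atp2a3 to 78.7% in Stim1, against a median of 52.7% over all windows. They held between 25 and 39 CG pairs, against a median of 7. Both medians are over all 32851 windows, and none was taken over the windows of tested genes alone. Whether this richness sets the 6 apart from other tested genes was not tested. A match is a description of the letters in these windows and not a measured binding site.

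Total counts were between 4092877 and 6427880 per library. The gene of the fusion, Tfe3, averaged 1037.5 ± 35.1 CPM with EtOH and 832 ± 4.34 CPM with 4OHT (SD, n = 3 each; log2 fold change −0.32, edgeR adjusted p = 9.8e-19), and its counts pool the endogenous gene and whatever the fusion shares with it. CPM are a gene's counts scaled to library size, with TMM factors, and 3 counts in a library correspond to between 0.469 and 0.738 CPM. The 8 markers of pluripotent cells, among them Pou5f1, Sox2 and Nanog, summed to between 4662 and 4822 CPM in EtOH and between 4728 and 4771 in 4OHT. Of these markers 3 passed edgeR's quasi-likelihood test (adjusted p under 0.05) as higher and 3 as lower. The 10 trophectoderm markers summed to between 455.5 and 478 CPM in EtOH and 971 and 990.1 in 4OHT, 6 of 7 tested passing as higher and none as lower, with Krt8 and Krt18 making up most of the sum. The 6 called genes were Krt8, Krt18 and the transcription factor genes Hand1 (5.98-fold, edgeR adjusted p = 8.5e-14), Eomes (2.62-fold, 1.1e-09), Gata3 (2.25-fold, 4.5e-05) and Tfap2c (1.16-fold, 0.0082). Ascl2 was not called (adjusted p = 0.10). Cdx2 had 31 counts over the EtOH libraries and 26 over the 4OHT libraries, Elf5 had 0 and 1 and Plac1 had 7 and 16, and these were not tested. The 8 neural markers went from between 175 and 188 CPM to between 109 and 116, with Nes and Tubb3 lower among 5 tested and Dcx without a count. The 8 muscle markers went from between 24.4 and 27.6 CPM to between 35.8 and 40.8, with Acta1 higher among 2 tested and Myog at 0 and 1 counts. Acta1 made up most of this sum, at 19.5 CPM in EtOH and 32.6 in 4OHT. The other tested muscle marker, Myh6, went from 4.50 to 3.46 CPM and was not called. The 8 primitive endoderm markers (between 116 and 125 CPM in EtOH and 120.2 and 139 in 4OHT) and the 8 fibroblast markers (between 15.1 and 23.1 and between 19.5 and 25.3, Lum without a count) overlapped between groups, and none of them passed the test with all 6 libraries. In each of these lists 1 gene passed as higher without EtOH replicate 2 or without 4OHT replicate 1, for primitive endoderm also without 4OHT replicate 3, and 1 neural marker did without EtOH replicate 1. The part of these markers in the results was not tested. In such bulk samples, fewer cells of a type and less RNA per cell cannot be told apart.

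**Figure D1:**
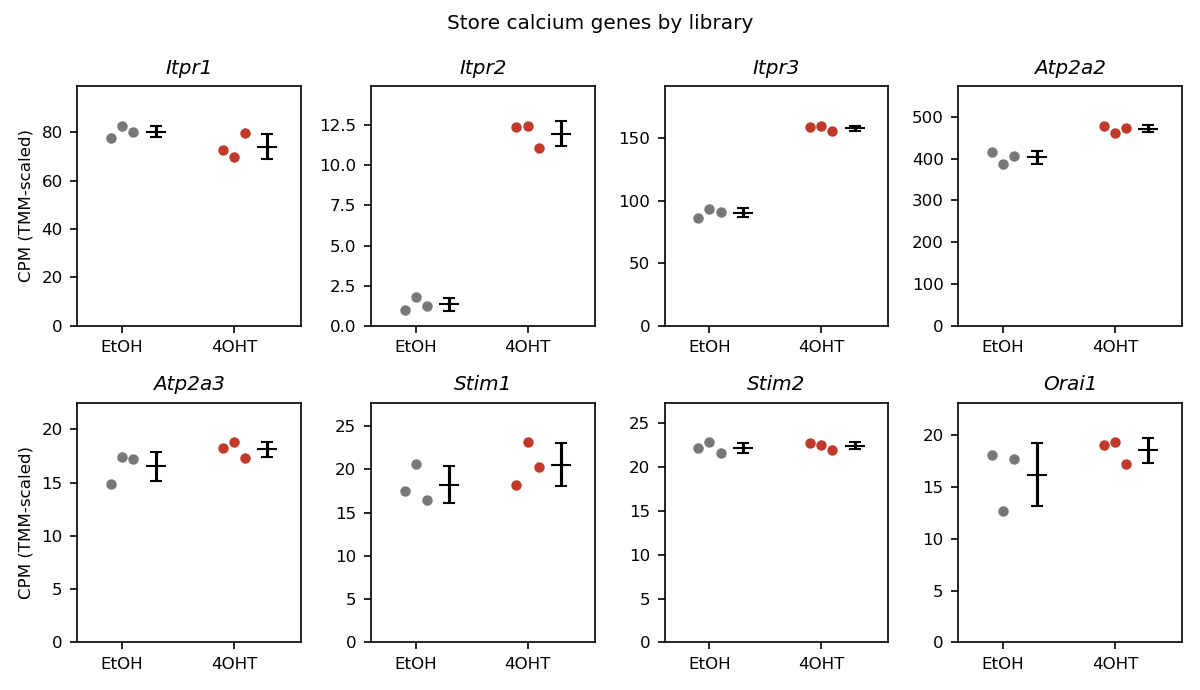
TMM-scaled CPM of the 8 genes (each panel has its own linear axis from 0). Each point is 1 library, grey for EtOH and red for 4OHT, and the black mark and bar are the mean and SD of 3 libraries. The groups are apart in Itpr2, Itpr3 and Atp2a2 and overlap in the other 5 genes; 48.8% of all tested genes had no overlap.

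Among the IP3 receptors, Itpr2 and Itpr3 were higher in 4OHT and Itpr1 was not. Itpr2 went from 1.35 to 12.0 CPM, an 8.90-fold difference, and Itpr3 from 90.2 to 158 CPM, 1.75-fold. Itpr2 (Entrez Gene 16439; GRCm38 chromosome 6, 146108299 to 146502258) encodes the receptor known from heart muscle, liver and glia. It had 1.01, 1.81 and 1.23 CPM in EtOH replicates 1 to 3 and 12.4, 12.4 and 11.1 CPM in 4OHT replicates 1 to 3. Every 4OHT library was above every EtOH library, and no EtOH library came near the 4OHT range. The counts behind these levels were low in EtOH: 5, 8 and 5, a sum of 18 with an exact Poisson 95% interval of 10.7 to 28.4, which covers counting error only. In 4OHT they were 57, 69 and 71, a sum of 197 (interval 170 to 227). The log2 fold change was 3.15 (SE 0.29), which ranked 5 of the 12345 tested genes from the largest rise down.

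Itpr3 (Entrez Gene 16440; chromosome 17, 27057002 to 27122223) encodes the receptor known from secretory epithelia. It had 86.2, 93.6 and 90.8 CPM in EtOH replicates 1 to 3 and 158, 159 and 155 CPM in 4OHT replicates 1 to 3. The groups did not overlap, and the spread within 4OHT was 2.06 CPM (SD) against a difference between means of 67.5. Its log2 fold change was 0.81 (SE 0.06). Its exons shared 2.58% of their bases with a model on the opposite strand, Itpr3os, in GENCODE vM21, and the strand setting of the counting was not given in the sources used here. The shares on opposite strands were 1.58% for Itpr1, 1.36% for Atp2a2 and 0.305% for Orai1.

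Itpr1 (Entrez Gene 16438; chromosome 6, 108213083 to 108551116) encodes the main receptor of neurons. It had 77.7, 82.5 and 80.2 CPM in EtOH replicates 1 to 3 and 72.5, 69.8 and 79.8 CPM in 4OHT replicates 1 to 3. The third 4OHT library lay inside the EtOH range and the other two lay below it. The log2 fold change was −0.11 (SE 0.07), and Itpr1 did not pass the test. The value was −0.06 without 4OHT replicate 2 and −0.17 without 4OHT replicate 3. Itpr1 and Itpr2 both lie on chromosome 6, far apart.

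The transcripts of the 3 receptors share part of their sequence. In aligned reading frames of their longest coding transcripts in GENCODE vM21, 71.9% of bases were identical between Itpr1 and Itpr2, 71.5% between Itpr2 and Itpr3 and 70.1% between Itpr1 and Itpr3. Over whole transcripts, the longest identical run between any pair of the receptors was 32 bases, between Itpr2 and Itpr3. Atp2a2 and Atp2a3 were identical at 70.8% of aligned bases, with a longer run of 44 bases. Stim1 and Stim2 were identical at 65.1%, with a longest run of 15 bases. Read length, and whether reads with several matching places were counted, were not given in the sources used here.

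Levels of different genes were compared per length, as CPM per kilobase of the deposited gene length. On that scale the 3 receptors together went from 18.3 ± 0.702 to 26.5 ± 0.208 CPM per kb (SD, n = 3 each). Itpr3 differed by 7.51 CPM per kb between the groups, Itpr2 by 1.27 and Itpr1 by −0.62. The largest fold change thus belonged to the receptor with the lowest level, and the largest difference in level to Itpr3. As a share of the 3 receptors, Itpr3 was at 54.8% ± 0.226 in EtOH and 66.3% ± 1.38 in 4OHT, and Itpr1 at 44.3% ± 0.394 and 28.3% ± 1.76. Itpr2 made up 0.878% ± 0.237 in EtOH and 5.43% ± 0.385 in 4OHT. The deposited length of Itpr2 is 8331 bases, while the longest coding transcript in GENCODE vM21 has 11679. With the GENCODE lengths Itpr2 made up 0.628% and 3.93%.

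**Figure D2:**
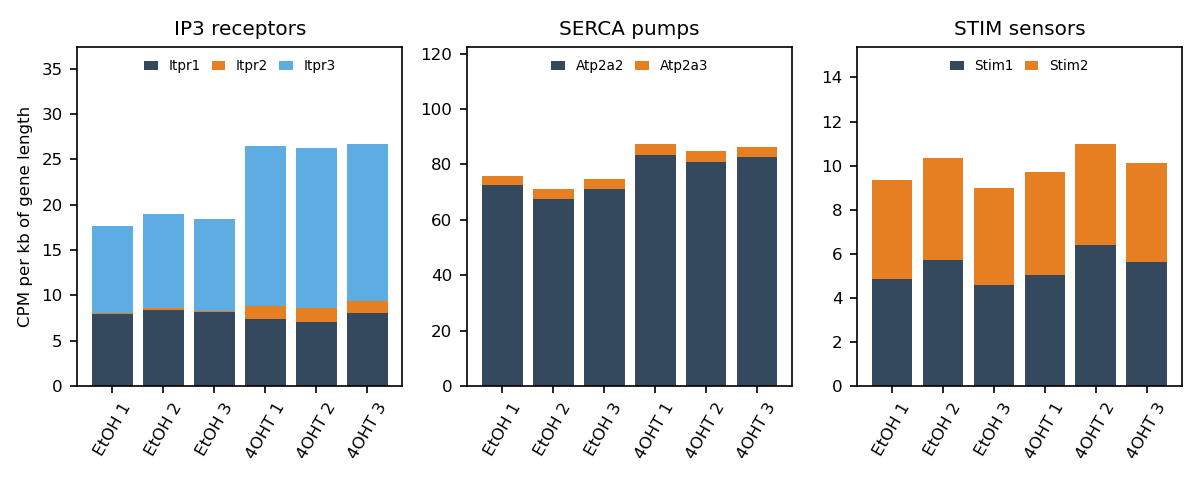
Summed level of each gene family by library, in CPM per kb of deposited gene length, stacked by gene. In the IP3 receptor panel the blue Itpr3 part grows in the 4OHT libraries and the orange Itpr2 part, 0.878% of the sum in EtOH, becomes visible at 5.43%. The SERCA bars are almost wholly Atp2a2 in all 6 libraries.

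Of the SERCA pumps, Atp2a2 was 1.17-fold higher in 4OHT and Atp2a3 overlapped between the groups. Atp2a2 (Entrez Gene 11938; chromosome 5, 122453513 to 122502225) encodes SERCA2, the pump that most cell types use. It had 416, 386 and 407 CPM in EtOH replicates 1 to 3 and 478, 462 and 473 CPM in 4OHT replicates 1 to 3. The groups did not overlap, and the lowest 4OHT library was 1.11-fold above the highest EtOH library. The log2 fold change was 0.22 (SE 0.04). Atp2a3 (Entrez Gene 53313; chromosome 11, 72961169 to 72993043) encodes SERCA3, a pump known from blood cells and epithelia. It had 14.9, 17.4 and 17.2 CPM in EtOH replicates 1 to 3 and 18.2, 18.8 and 17.3 CPM in 4OHT replicates 1 to 3. The third 4OHT library fell within the EtOH range, and the log2 fold change of 0.14 (SE 0.14) did not pass the test; it was 0.06 without EtOH replicate 1. Per length, Atp2a3 made up 4.86% ± 0.535 of the 2 pumps in EtOH and 4.56% ± 0.224 in 4OHT, ranges that overlap.

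The sensors and the entry channel overlapped between groups in each case. Stim1 (Entrez Gene 20866; chromosome 7, 102261514 to 102437319), the sensor that drives most store-operated entry, had 17.5, 20.6 and 16.5 CPM in EtOH replicates 1 to 3 and 18.2, 23.1 and 20.3 CPM in 4OHT replicates 1 to 3. The second EtOH library was above 2 of the 4OHT libraries (log2 fold change 0.18, SE 0.14), and the value was 0.09 without 4OHT replicate 2 and 0.28 without EtOH replicate 2. Stim2 (Entrez Gene 116873; chromosome 5, 53998523 to 54121057), which responds to smaller falls of store calcium, had 22.2, 22.8 and 21.7 CPM in EtOH replicates 1 to 3 and 22.8, 22.5 and 22.0 CPM in 4OHT replicates 1 to 3. These are the closest group means of the 8 genes, with a log2 fold change of 0.01 (SE 0.12). It was −0.003 without EtOH replicate 3, 0.03 without EtOH replicate 2 or 4OHT replicate 3, 0.0056 without 4OHT replicate 1 and −0.02 with upper quartile factors. Orai1 (Entrez Gene 109305; chromosome 5, 123015074 to 123030452), the pore of the entry channel, had 18.1, 12.7 and 17.7 CPM in EtOH replicates 1 to 3 and 19.1, 19.3 and 17.2 CPM in 4OHT replicates 1 to 3. The second EtOH library was below all others and the third 4OHT library was below 2 EtOH libraries. The log2 fold change of Orai1 was 0.19 (SE 0.14), 0.04 without EtOH replicate 2 and 0.29 without EtOH replicate 1.

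Of the 8 genes 3 passed edgeR's quasi-likelihood test at a Benjamini-Hochberg adjusted p under 0.05, all as higher, beside 42.0% of all tested genes called in either direction and 21.4% called as higher. The same 3 were those whose groups did not overlap, beside 48.8% of all tested genes. The median log2 fold change was 0.18 over the 8 genes and 0.00 over all tested genes. Nothing is read from these counts, since the members were chosen on this comparison.

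**Figure D3:**
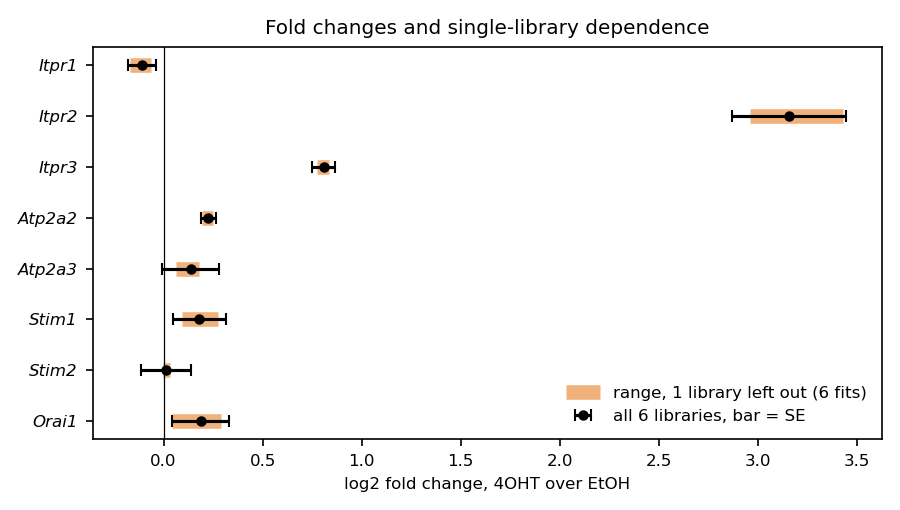
Log2 fold change of 4OHT over EtOH for the 8 genes. Points and bars are the estimate and SE from all 6 libraries, and the shaded range spans the 6 fits that each leave out 1 library. Itpr2 ranges from 2.96 to 3.43, Itpr3 from 0.77 to 0.84 and Atp2a2 from 0.20 to 0.25, while Stim2 lies on both sides of 0.

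In EtOH the order of the levels per length was Atp2a2 at 70.4 ± 2.66 CPM per kb, Itpr3 at 10.0 ± 0.415, Orai1 at 8.64 ± 1.63, Itpr1 at 8.11 ± 0.242, Stim1 at 5.04 ± 0.589, Stim2 at 4.52 ± 0.121, Atp2a3 at 3.58 ± 0.303 and Itpr2 at 0.162 ± 0.0496 (SD, n = 3 each). Orai1 overlapped its neighbours Itpr3 and Itpr1, and Stim1 overlapped Stim2, so these neighbours do not differ beyond their spread. In 4OHT, with these deposited lengths, the order was the same and no neighbours overlapped: Itpr3 stood at 17.5 ± 0.229, Orai1 at 9.90 ± 0.624, Itpr1 at 7.50 ± 0.525 and Itpr2 at 1.44 ± 0.0914 CPM per kb. Itpr2 thus stayed the lowest of the 8, below Atp2a3 at 3.93 ± 0.156. The place of Stim1 rests on the length used. With GENCODE lengths it stood below Stim2 in EtOH, at 4.17 ± 0.487 against 4.50 ± 0.120 CPM per kb, and overlapped both Stim2 and Atp2a3. In 4OHT it then stood at 4.71 ± 0.558 against 4.55 ± 0.0791 for Stim2, and the pair overlapped. The other places in the order were the same with both lengths.

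The tested genes whose pattern over the 6 libraries was nearest to that of Itpr2, by root mean square difference of centred log2 CPM among 11392 genes, were Slc16a9 (0.128), Lrrc15 (0.130), Cd63 (0.204), S100a1 (0.275) and Fabp3 (0.288). Slc16a9 is a transporter gene that went from 2.56 to 18.8 CPM, and Lrrc15 went from 2.60 to 19.1 CPM. The log2 CPM used here include a prior count of 2, which draws in differences that rest on few counts, as in Itpr2. In the fit, the log2 fold changes of these genes ran from 2.54 (Cd63) to 3.05 (S100a1), beside 3.15 for Itpr2. With 6 libraries in 2 groups, this measure mostly finds genes with a difference of like size between the groups on this scale. The same measure for Itpr1, the member with the lowest log2 fold change, gave Kntc1 (0.021), Tasor (0.023), the mitochondrial gene ND4 (0.026), Cnot1 (0.026) and Gins1 (0.027), with log2 fold changes between −0.16 and −0.10.

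Other genes of calcium handling were taken from 11 lists, and their edgeR adjusted p-values come from the fit over all genes. Like the members, the lists were chosen with earlier results of these data known. Their counts, medians and p-values are therefore a description and lend the members no separate support. Of 128 tested genes 35 rose and 20 fell, with a median log2 fold change of 0.04, beside 21.4% called as higher and 20.6% called as lower over all genes. In the list nearest to the members, further genes of store-operated entry and SERCA control, 2 of 13 tested rose, none fell, and the median was 0.04. The genes of this list other than Orai2 and Esyt1 are named with their values seen. The other pore subunits were Orai2 (1.76 ± 0.400 to 3.34 ± 0.943 CPM, log2 fold change 0.92, adjusted p = 0.039) and Orai3 (25.9 and 23.7 CPM, log2 fold change −0.12, adjusted p = 0.45). Orai2 lost its call without EtOH replicate 2 (0.11), EtOH replicate 3 (0.12), 4OHT replicate 1 (0.076) or 4OHT replicate 3 (0.24). Esyt1, which tethers the endoplasmic reticulum to the plasma membrane, rose 1.17-fold (adjusted p = 0.0056, but 0.17 without EtOH replicate 3). Saraf, a brake on store-operated entry, had an adjusted p of 0.056 (0.042 without 4OHT replicate 2), and the leak channel gene Tmco1 0.057 (0.013 without EtOH replicate 1 and 0.011 without 4OHT replicate 3). The SERCA inhibitor genes Pln and Sln had no count in any library, and Atp2a1, the pump of fast muscle, had 3 counts in EtOH and 6 in 4OHT.

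The ryanodine receptors, the other family of store release channels, and their partners moved in both directions. Of 8 tested 1 rose and 3 fell (median −0.17). Jph4, a junctophilin that links the endoplasmic reticulum to the plasma membrane, fell from 20.5 ± 0.694 to 4.52 ± 0.479 CPM (4.54-fold lower, adjusted p = 2.2e-24). Jph1 was 1.41-fold lower (adjusted p = 0.0027) and Fkbp1a, an immunophilin that binds ryanodine receptors, 1.13-fold lower (adjusted p = 5.7e-05). The higher gene, named after its values were seen, was Ryr2 (7.48 to 10.3 CPM, adjusted p = 0.043). Ryr2 was not called without EtOH replicate 1 (0.27), EtOH replicate 3 (0.11), 4OHT replicate 2 (0.14) or 4OHT replicate 3 (0.081). Ryr1, also named then, was at 21.0 and 18.8 CPM (adjusted p = 0.35).

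Of 14 tested genes listed around the binding and removal of IP3 receptors, relatives of such genes among them, 6 rose and 1 fell (median 0.19). Not all 14 encode proteins known to bind the receptors or tag them for removal. Bcl2l1, which encodes the survival factor BCL-xL, rose from 66.5 ± 5.62 to 115 ± 2.10 CPM (1.72-fold, adjusted p = 7.9e-25). Ahcyl2, a relative of the receptor-binding protein IRBIT, rose 1.81-fold (adjusted p = 3.3e-17) and Erlin2, needed to remove activated receptors and named after its values were seen, 1.24-fold (adjusted p = 0.00011). The lower gene was Bok, a BCL2 family member (26.7 ± 2.47 to 12.9 ± 1.21 CPM, 2.08-fold lower, adjusted p = 4.8e-12).

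Upstream, of 13 tested genes of phospholipase C and Gq proteins, 1 rose and 5 fell (median −0.04). Gna14, a Gq family subunit, was 2.34-fold lower (14.0 ± 0.855 to 5.90 ± 0.762 CPM, adjusted p = 6.8e-09), Plcg2 was 1.30-fold lower (adjusted p = 2.3e-05) and Plcb3 1.18-fold lower (adjusted p = 1.1e-05). The other called genes of the list were named with their values seen. The higher one was Plcd1 (1.58-fold, adjusted p = 2.9e-05). The lower genes were Plch1 (adjusted p = 0.018, but 0.057 without EtOH replicate 2 and 0.29 without 4OHT replicate 2) and Plcg1 (0.041). Plcg1 lost its call without EtOH replicate 1 (0.11), EtOH replicate 2 (0.058), EtOH replicate 3 (0.084) or 4OHT replicate 1 (0.30).

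Among 13 tested genes that make or use inositol phosphates, 5 rose and 3 fell (median 0.22). Isyna1, which makes inositol phosphate from glucose phosphate, fell from 159 ± 5.46 to 85.2 ± 5.16 CPM (1.86-fold lower, adjusted p = 5.5e-38). The inositol phosphate kinase genes Ipmk and Itpk1 rose 1.33-fold (adjusted p = 2.6e-12) and 1.30-fold (adjusted p = 9.1e-12). The rest were named after their values were seen: Impa1 rose (1.23-fold, adjusted p = 0.00022), as did Inpp5a (0.016) and Cdipt (0.023), and Impa2 (0.0022) and Itpka (0.043) fell. Impa2 lost its call without EtOH replicate 1 (0.092), and Inpp5a without EtOH replicate 2 (0.079) or 4OHT replicate 1 (0.09). Cdipt lost it without EtOH replicate 1 (0.057), EtOH replicate 2 (0.052) or 4OHT replicate 2 (0.19). Itpka, which phosphorylates IP3, lost it in every fit that left out a library other than EtOH replicate 3: 0.1 and 0.3 without EtOH replicates 1 and 2, and 0.13, 0.053 and 0.064 without 4OHT replicates 1, 2 and 3.

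Of 15 tested calcium-binding proteins of the lumen, 5 rose and 4 fell (median 0.01). Casq2, named with its values seen, was left out by the filter, with 8 counts over the EtOH libraries and 51 over the 4OHT libraries. Calr, the main calcium buffer of the store, rose 1.15-fold (430.5 ± 24.4 to 495 ± 11.7 CPM, adjusted p = 1.2e-06), Nucb1 1.29-fold (adjusted p = 3.8e-07) and Calu 1.17-fold (adjusted p = 1.8e-06). Casq1 and Rcn2 were named with their values seen: Casq1 was higher (1.80-fold, adjusted p = 0.0014), and so was Rcn2 ( 0.0049, but 0.065 without EtOH replicate 1). The lower genes, also named then, were Hsp90b1 (1.09-fold lower, adjusted p = 0.00058), Pdia4 (1.14-fold, 0.00026), Rcn3 (1.33-fold, 0.00011) and Rcn1 (0.0069, but 0.12 without EtOH replicate 2 and 0.075 without 4OHT replicate 3).

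Lists of other calcium routes held few tested genes, and differences between their counts were not tested. Over all tested genes 21.4% were called as higher and 20.6% as lower. Of 7 lysosomal channel genes 4 were tested. All 3 called genes among 4 tested lysosomal channels rose (median 0.70): P2rx4, an ATP-gated channel, 2.44-fold (adjusted p = 6.5e-10), Mcoln1 1.76-fold (adjusted p = 4.9e-12) and the cation channel gene Tpcn1 1.49-fold (adjusted p = 3.6e-06). Of 12 tested mitochondrial genes 2 rose (median 0.04): Slc8b1, the sodium-calcium exchanger of mitochondria, 1.51-fold (adjusted p = 1.5e-06), and Mcur1 (adjusted p = 0.03). Mcur1 lost its call without EtOH replicate 1 (0.13), EtOH replicate 3 (0.11), 4OHT replicate 1 (0.13) or 4OHT replicate 2 (0.11). Of 5 tested pumps and exchangers of the plasma membrane and Golgi, Atp2b4 rose 1.80-fold (adjusted p = 2.5e-05) and Tmem165 was 1.21-fold lower (adjusted p = 0.00019; list median −0.10). Of 7 tested voltage-gated channel subunits (median −0.13), Cacna1a rose 1.24-fold (adjusted p = 0.0015) and Cacna1b fell (0.034). Cacna1b lost its call without EtOH replicate 1 (0.055), EtOH replicate 2 (0.052), EtOH replicate 3 (0.12), 4OHT replicate 1 (0.061) or 4OHT replicate 2 (0.092).

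Downstream of calcium, of 24 tested genes of calmodulin, its kinases, calcineurin and NFAT, 8 rose and 2 fell (median 0.07). Rcan2, a calcineurin inhibitor, rose from 2.26 ± 0.447 to 7.76 ± 0.569 CPM (3.49-fold, adjusted p = 1.7e-08). Among the calmodulin-dependent kinases, Camk2d rose 2.08-fold (adjusted p = 5.9e-09) and Camk2b was 1.88-fold lower (adjusted p = 1.2e-07). Also higher, and named after their values were seen, were Camk2a (2.02-fold, adjusted p = 1e-06), the calcineurin subunit gene Ppp3ca (1.61-fold, adjusted p = 3.3e-06) and the factor gene Nfatc1 (1.73 to 4.59 CPM, 2.71-fold, adjusted p = 0.00028). The other lower gene, Camkk2 (0.04), also named then, lost its call without EtOH replicate 1 (0.19), EtOH replicate 3 (0.089), 4OHT replicate 1 (0.095) or 4OHT replicate 2 (0.094).

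**Figure D4:**
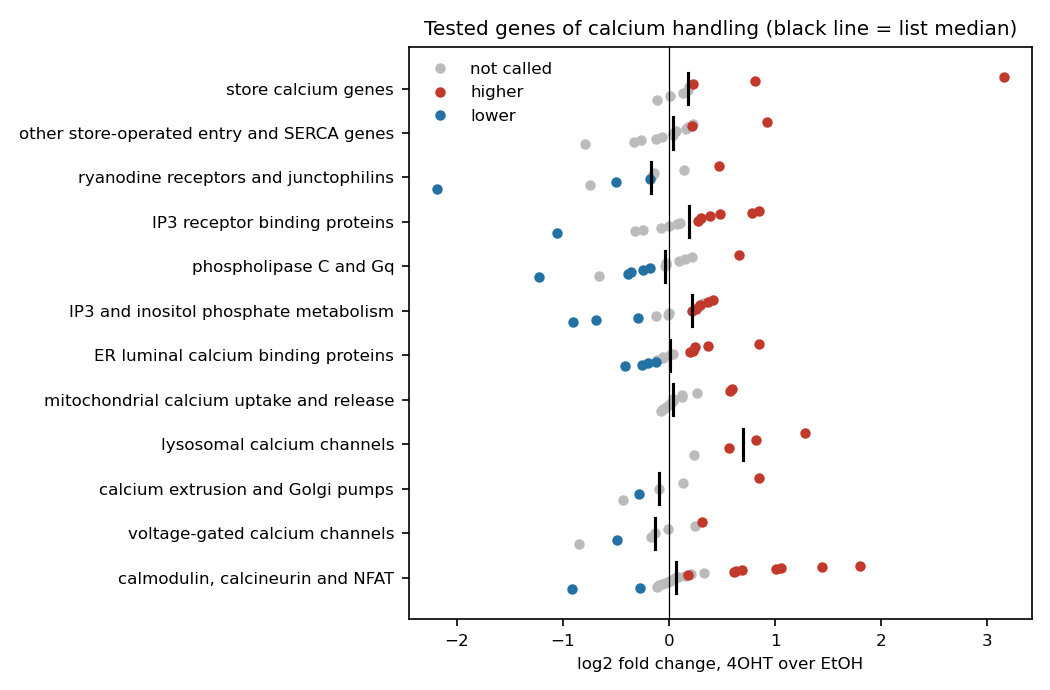
Log2 fold change of 4OHT over EtOH for each tested gene of the store calcium genes and the 11 other calcium lists. Each point is a gene, red or blue where edgeR's adjusted p was under 0.05, and the black line is the list median. The lysosomal channels have the highest median, 0.70 over 4 tested genes, and the largest single value is Itpr2 at 3.15.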

How the data were processed

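RNA libraries were made from 500 ng of total RNA with a stranded mRNA kit, per the labels' protocols. The authors deposited a table of unnormalized counts for each gene and library, beside a gene length in bases. The submitters' processing notes name featureCounts, STAR, fastp and the build mm10, with neither roles nor versions. Genes without a symbol numbered 1314 and took between 0.411% and 0.478% of a library's counts.

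Genes were kept by filterByExpr (minimum count 10, total 15), scaled with TMM factors and tested with edgeR 4.0.16 (robust quasi-likelihood) under R 4.3.3. Calls needed a Benjamini-Hochberg adjusted p under 0.05 among 12345 genes. Fold changes are unshrunk coefficients, and dividing their size by the square root of F gave the SE. The biological coefficient of variation was 3.59%. Alternatives were upper quartile factors, DESeq2 size factors, a filter of 1 CPM in 3 libraries or none, a replicate block, the DESeq2 1.42.0 test and leaving out each library. The GENCODE length was added after seeing the data. Coding sequences were compared because no protein sequences were used here. All pairs of libraries of a group differed by more than counting error. The steps were tested on simulated data in which every fold change was smaller than that of Itpr2, so the size of its difference was not covered.

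The members and lists were chosen with earlier results of these data known. Named were the members, Tfe3, the called genes of each list by smallest p, at most 3, and the 5 genes nearest in pattern to Itpr2 and to Itpr1 among those whose mean log2 CPM was 2 or more; others are marked where named, apart from the marker genes.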

Additional observations from a re-analysis of the deposited data

How the results depend on the processing

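The 8 members kept their side of the threshold under all 12 alternatives, and all but Stim2 kept their direction. These fits reuse the libraries on which the members were chosen, so they show dependence on the processing and are no separate support. The log2 fold change of Itpr2 lay between 2.96 and 3.43, of Itpr3 between 0.77 and 0.84 and of Atp2a2 between 0.19 and 0.25. Stim2 was at −0.021 with upper quartile factors and ranged from −0.0033 to 0.0328 when 1 library was left out. With GENCODE lengths, chosen after seeing the data, Itpr2 made up 0.628% of its family in EtOH and 3.93% in 4OHT, Atp2a3 3.85% and 3.61%, and Stim1 48.0% and 50.7%. Over all genes, the calls ranged from 1926 to 2700 as higher and from 1761 to 2958 as lower, and over the calcium lists from 25 to 37 and from 14 to 26. The replicate block gave 2585 higher and 2497 lower genes; same-numbered libraries did not deviate together (correlations −0.0226, −0.0161 and −0.017), so the numbers were not used as pairs. The block ended the calls of Orai2 (0.051), Ryr2 (0.055) and Itpka (0.056), called Tmco1 (0.038) and changed no other call of a named gene. Small list counts moved by over 1.5 times: store-operated entry from 2 higher to between 0 and 4, ryanodine receptors from 1 higher to 0, phospholipase C from 5 lower to 3, inositol phosphates from 5 higher to 3 and from 3 lower to 1, mitochondria from 2 higher to 1, extrusion from 1 to 2 in each direction, voltage-gated channels from 1 lower to between 0 and 3 and calmodulin from 2 lower to between 1 and 5. Primitive endoderm, fibroblast and neural markers went from 0 higher to 1, and store-operated entry and mitochondria from 0 lower to 1. Of 63 called genes followed by name, 47 kept the call in every alternative, and DESeq2 did not call 14, all of which also lost the call without at least 1 library: Tasor, Esyt1, Orai2, Mcur1, Cacna1b, Ryr2, Plcg1, Plch1, Camkk2, Rcn1, Rcn2, Itpka, Inpp5a and Cdipt. Depth limits Itpr2 in EtOH, which rests on 18 counts. No RefSeq transcript length was used, since the table gives genomic spans.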
